A study of Bos taurus with 24 samples.

Results

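The 5 miRNAs described here are known from liver, gut epithelium and islet endocrine cells, and were measured in plasma of heifers across the oestrous cycle. They are bta-miR-192, bta-miR-194, bta-miR-215, bta-miR-122 and bta-miR-375, and were taken by name from a table of 870 miRNAs (626 bovine and 244 human). All 5 were in the table, and 0 other rows (other arms or human rows) carried their numbers. The plasma came from 8 non-pregnant Holstein-Friesian heifers in the second year of life, and its small RNA was sequenced. All had been synchronised with a progesterone insert, buserelin and cloprostenol, so that every group shares this treatment. Each heifer gave 1 library on Day 0 (the day oestrus was first seen), 1 on Day 8 and 1 on Day 16, which made 24 libraries, 8 for each day. Heifers are called here by the numbers of their labels (16, 18, 20, 21, 22, 25, 34 and 35).

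Plasma holds few cells, and its miRNAs come from many tissues, carried in vesicles or bound to protein. A higher plasma level can therefore reflect more cells of a type, more RNA per cell or more release from them, and these cannot be told apart here. In humans and mice, miR-122 is the dominant miRNA of hepatocytes, where it takes part in the control of cholesterol metabolism, and its level in blood is used as a sign of liver injury. miR-192, miR-194 and miR-215 are abundant in intestinal epithelium, liver and kidney of the same species, and are transcribed from a pair of loci, each of which joins a miR-194 gene to miR-192 or to miR-215. miR-375 is best known from the pancreatic islet, where in mice it restrains insulin secretion, and is also found in the pituitary and in gut epithelium.

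The mature sequences show how closely 2 of the 5 resemble each other. They were read from the sequence listing that accompanies the study, in which none was found for miR-122. The others are printed 5′ to 3′ as DNA letters, with the seed (bases 2 to 8, which pair with targets) in capitals.
bta-miR-192: cTGACCTAtgaattgacagccag
bta-miR-215: aTGACCTAtgaattgacagaca
bta-miR-194: tGTAACAGcaactccatgtgga
bta-miR-375: tTTTGTTCgttcggctcgcgtga
miR-192 and miR-215 had the same seed and were identical at 20 of 22 positions. Counted from the 5′ end, with the base of miR-192 given before the position and that of miR-215 after it, they differed by C1A and C20A. They shared an unbroken run of 18 bases, positions 2 to 19, and this run is itself listed as an isomiR (a length variant) of miR-192, although it is contained in both.
miR-192 isomiR contained in both: tGACCTATgaattgacag
Reads were assigned with 1 mismatch allowed, so short reads of this kind may have been counted in either row. The same holds for longer reads that cover only 1 of the differing positions. The mature sequences above are reference forms. The paper reports that the reference form of miR-192 was far scarcer in plasma than the most abundant isomiR of this miRNA. The printed form is therefore not the one that made up most of its row. The listing also holds variants of miR-375 and of miR-192 that begin 1 base later and so carry another seed, capitalised below. The variant of miR-192 also ends 1 base earlier.
bta-miR-375, starting 1 base later: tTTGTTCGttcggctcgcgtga
bta-miR-192, starting 1 base later: tGACCTATgaattgacagcca

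In the deposited table bta-miR-192 and bta-miR-194 lie beside each other on chromosome 29, on the minus strand, at chr29:44934770-44934792 and chr29:44934976-44934997, with 183 bases between them. bta-miR-375 is given at chr2:111347586-111347608 (minus strand), bta-miR-122 at chr24:59932237-59932258 (plus strand), and bta-miR-215 on the unplaced contig Un.004.2 from 1796387 to 1796408 (plus strand). The table does not name the genome build of these positions. In the RefSeq gene list of ARS-UCD2.0, MIR192 has MIR194-2 and MIR194B-2 within 1 kb, and MIR215 has MIR194-1 and MIR194B. MIR122 and MIR375 have no other miRNA gene within that distance. Mature miR-194 can come from either locus, and its row in the table cannot be split between them.

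Libraries held 1299679 to 3818770 reads assigned to miRNAs on Day 0, 2197709 to 4700764 on Day 8 and 1488279 to 4672302 on Day 16. The share of reads taken by miR-486, an erythrocyte miRNA, ran from 6.07% to 45.1% over the 24 libraries. Its median was 20.0% on Day 0, 15.3% on Day 8 and 28.6% on Day 16. The Day 0 library of heifer 16 stood apart, with the smallest total of all and the lowest share of miR-486. It is named wherever a result rests on it, and no library was removed. The erythrocyte markers miR-486, miR-451 and miR-144 summed to 34943 to 344565 RPMM on Day 0, 63207 to 277496 RPMM on Day 8 and 95919 to 379577 RPMM on Day 16. RPMM, the unit of the levels given here, is the read count divided by the genome-mapped reads of the library and put on a common scale. It is not corrected for the share of reads that miR-486 takes. Of these 3 markers, the 4 rows of platelet markers (miR-223, miR-126 and miR-191) and the 4 rows of leukocyte markers (miR-142, miR-150 and miR-155), 0 passed the test between any pair of days in edgeR, DESeq2 or limma. At an unadjusted p under 0.05 edgeR had 2 erythrocyte rows and 1 platelet row for Day 16 against Day 0. For Day 16 against Day 8 it had 1 platelet and 1 leukocyte row. Of all 181 miRNAs tested, 26 and 7 reached that p for these pairs of days. DESeq2 had 2 erythrocyte rows for each pair. All 3 erythrocyte rows were higher on Day 16 than on Day 0. Their log2 fold changes were 0.76 for miR-486, 0.59 for miR-451 and 0.48 for miR-144 (edgeR adjusted p = 0.404, 0.340 and 0.340).

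By reads, miR-192 was among the most abundant miRNAs of plasma, miR-215 and miR-375 were common, and miR-194 and miR-122 were scarce. Mean RPMM over all 24 libraries was 36986 ± 11670 for miR-192 (SD, rank 3 of 870), 9933 ± 5911 for miR-215 (rank 19), 2197 ± 725 for miR-375 (rank 41), 156 ± 46.9 for miR-194 (rank 125) and 45.2 ± 35.8 for miR-122 (rank 169). In shares of all reads assigned to miRNAs, these were 5.15%, 1.48%, 0.310%, 0.0216% and 0.00625% in the same order. The 5 together took 2.67% to 13.5% of the reads of a library. Mature miRNAs are of nearly equal length in the reference forms (22 or 23 bases), although isomiRs can be shorter or longer. Reads were compared between miRNAs without a correction for length. The paper names adaptor ligation as a platform bias that affects the relative abundance of a miRNA. No correction was made for it, so ranks and ratios between miRNAs describe reads and may differ from the order in plasma.

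The order of neighbouring levels was mostly kept within libraries. miR-192 exceeded miR-215 in 24 of 24 libraries, by 1.81-fold to 26.6-fold, although their ranges over libraries overlapped. miR-215 exceeded miR-375 in 21 of 24, and the 3 libraries in which it did not were those of heifer 34. miR-375 exceeded miR-194 in every library, and the ranges did not overlap, the lowest miR-375 value being 1186 RPMM and the highest miR-194 value 299.5 RPMM. miR-194 exceeded miR-122 in 24 of 24 libraries, but by as little as 1.05-fold, and their ranges overlapped. miR-122, which in a hepatocyte would lead this list, was above 25 RPMM in only 17 of 24 libraries (5 on Day 0, 6 on Day 8 and 6 on Day 16).

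**Figure D1:**
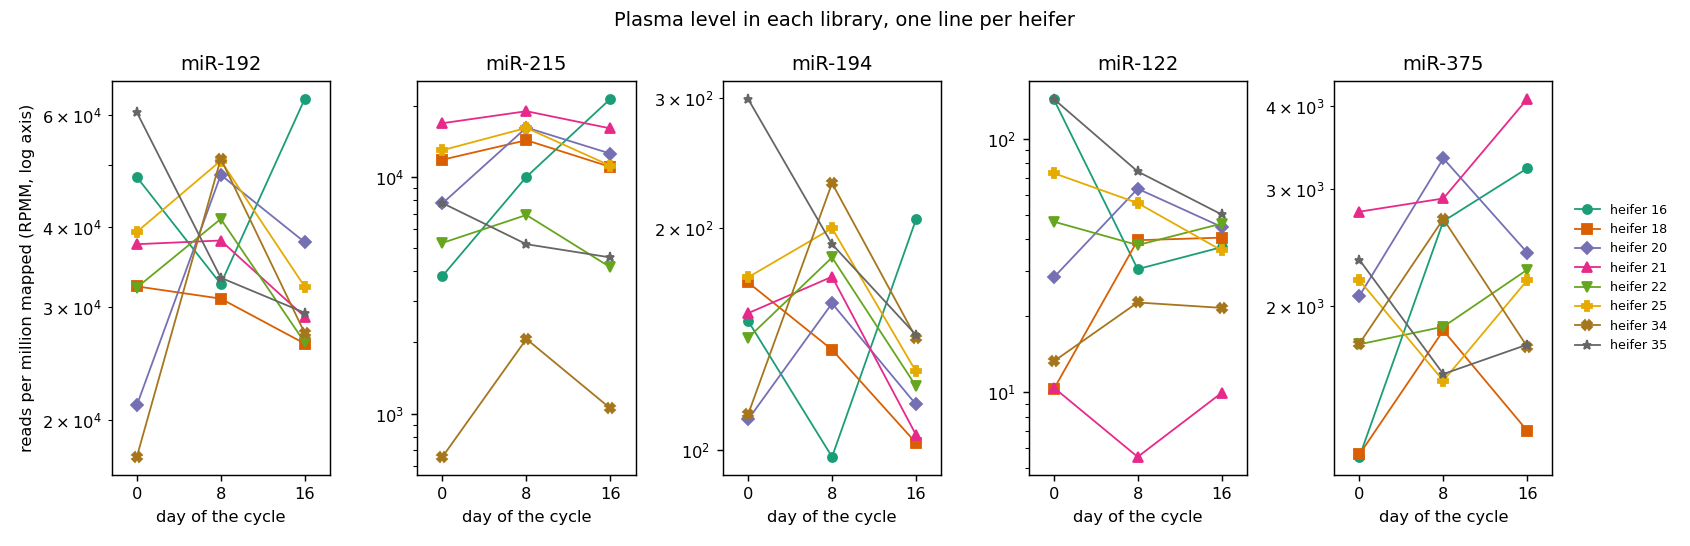
Level of each of the 5 miRNAs (RPMM, log axis, a scale of its own in each panel) in every library against the day of the cycle, with a line for each of the 8 heifers. The miR-215 line of heifer 34 lies below all others on each day, between 657 and 2068 RPMM, and no panel shows all 8 lines moving one way.

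The comparison of days asked whether any of the 5 differed between oestrus and the luteal phase, when the corpus luteum secretes progesterone. None passed the test. Counts were fitted with edgeR's quasi-likelihood test, with day and heifer as terms, for the 181 miRNAs above 25 RPMM in at least 6 of 8 libraries of each day, and calls were made at an adjusted p under 0.1 (Benjamini-Hochberg). 4 of the 5 passed this limit. miR-122 did not, because of Day 0, and was taken from a fit with edgeR's own filter on low counts (326 miRNAs).

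For Day 8 against Day 0, 0 of the 5 were called, where the background was 1.1% of the 181 miRNAs and 1.53% of the 326. For Day 16 against Day 0, 0 of 5 were called, against 0% and 0.307%. For Day 16 against Day 8, 0 of 5 were called, against 0% and 0%. For any effect of day, 0 of 5 were called, against 0% and 0.613%. In these edgeR fits 0 of the 5 reached an unadjusted p under 0.05 in any of the 4 tests, while 26, 26, 7 and 23 of the 181 did. DESeq2 called 11, 3, 0 and 8 of the 181 and again 0 of the 5. At an unadjusted p under 0.05 DESeq2 had miR-215 for Day 8 against Day 0 and miR-375 for Day 16 against Day 0, and limma and edgeR with RLE scaling had miR-215 for Day 8 against Day 0.

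**Figure D2:**
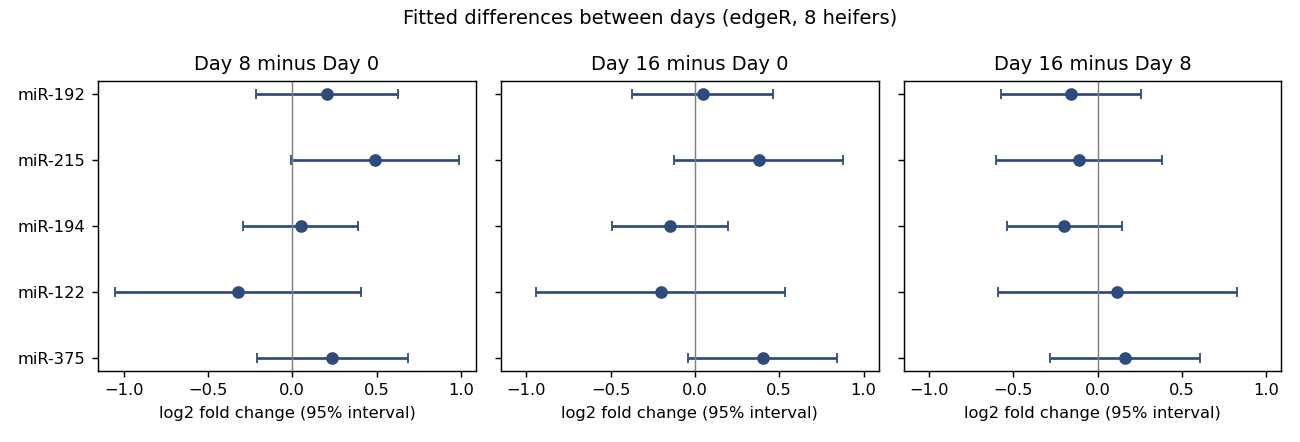
Fitted log2 fold change (edgeR, later day minus earlier day, x axis) of each of the 5 miRNAs for the 3 pairs of days, with its 95% interval from 8 heifers. Every interval spans 0, the nearest to excluding it being miR-215 for Day 8 minus Day 0, from −0.01 to 0.99.

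miR-215 came closest to a difference between days. Its lowest, median and highest RPMM were 657, 7743 and 16854 on Day 0, 2068, 12146 and 18942 on Day 8, and 1054, 11086 and 21342 on Day 16. The ranges overlapped almost wholly. Within heifers the normalised count was higher on Day 8 than on Day 0 in 7 of 8, with a log2 fold change of 0.49 (SE 0.24, 95% interval −0.01 to 0.99, edgeR adjusted p = 0.314). For Day 16 against Day 0 it was 0.38 (SE 0.24, 95% interval −0.12 to 0.88, adjusted p = 0.448, higher in 6 of 8 in normalised counts but in 3 of 8 in RPMM), and for Day 16 against Day 8 it was −0.11 (SE 0.24, 95% interval −0.60 to 0.38, adjusted p = 0.957). These intervals leave room for differences of up to nearly 1 on the log2 scale. Without heifer 16, whose Day 0 library stood apart, the first 2 differences were 0.38 and 0.13. Without heifer 34 the first was 0.31.

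Heifers, in contrast, differed strongly in miR-215. Heifer 34 had 657, 2068 and 1054 RPMM on Days 0, 8 and 16, the lowest value of each day. Heifer 21, at the other end, had 16854, 18942 and 16022 RPMM on the same days. The highest library of heifer 34 was below the lowest of any other heifer (3815 RPMM, heifer 16 on Day 0). Between these ends lay heifer 22 (4154 to 6906 RPMM), heifer 35 (4571 to 7752), heifer 20 (7733 to 16157), heifer 18 (11024 to 14286) and heifer 25 (11149 to 16104). Heifer 16 was the least steady, with 3815, 10007 and 21342 RPMM on Days 0, 8 and 16.

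The heifer term of the same edgeR fit tests differences between animals against the spread left within animals. For miR-215 it gave F = 17.1 and an adjusted p of 3.52e-05, the second smallest p of the 181 miRNAs. Of the 5 miRNAs 2 were called for this term, miR-215 and miR-122, where the background was 17.7% of the 181 and 19% of the 326. Heifer accounted for 88.4% of the sum of squares of log2 CPM of miR-215 and day for 2.98%, while the medians over the 181 were 41.8% and 8.05%. Only 1 of the 181 had a higher share for heifer. The SD of the 8 heifer means, 1.36 on the log2 scale, was the largest of the 181, and the highest and lowest heifer means lay 17.2-fold apart, against a median of 1.68-fold.

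**Figure D3:**
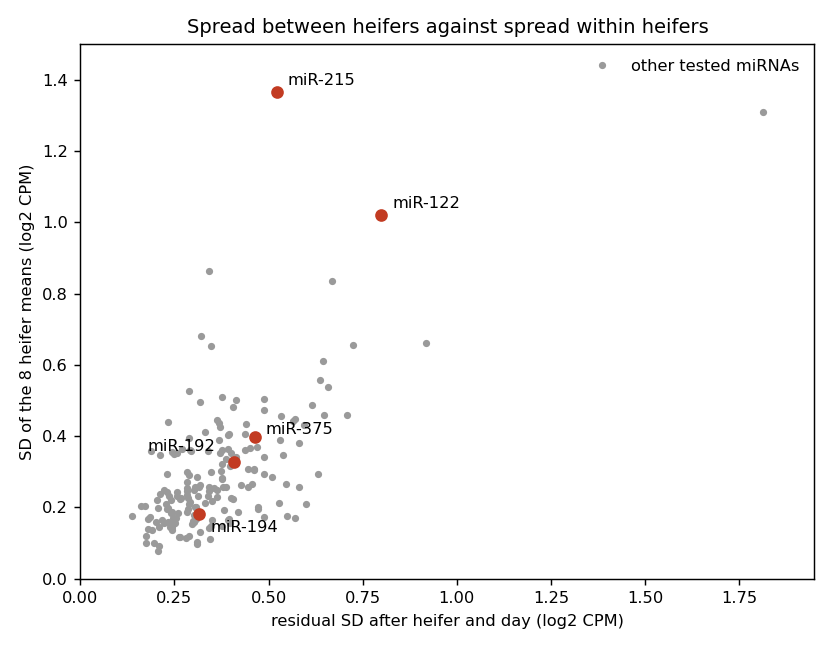
SD of the 8 heifer means (y axis, log2 CPM) against the residual SD left after heifer and day (x axis, log2 CPM) for each tested miRNA (grey) and the 5 miRNAs described (red). miR-215 is at 1.36 and 0.52, miR-122 at 1.02 and 0.80, and the other 3 lie among the bulk of miRNAs.

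This result did not rest on heifer 34 alone, since without this animal F was 6.81 and the adjusted p 0.0140. Without heifer 16, whose libraries varied most, F was 34.4. The result was as large with the share of miR-486 as a covariate (F = 16.8), an alternative added after the data were seen. miR-486 took a mean of 21.1% of reads in heifer 34 and 20.3% in heifer 21, the animals with the lowest and highest miR-215, inside a range over heifers of 11.6% (heifer 35) to 34.7% (heifer 18). Heifer 34 also had shallow libraries, of 1978572 to 2441270 reads, in which miR-215 had 2137, 6598 and 2844 reads on Days 0, 8 and 16. The part of depth in its low level was not tested.

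The ratio of miR-215 to miR-192 within a library, which does not depend on depth or scaling, separated the same heifers. It may depend on where reads that match both miRNAs were counted, which was not tested. Heifer 34 had 26.6, 24.8 and 26.0 miR-192 reads for each miR-215 read on Days 0, 8 and 16. In heifer 21 there were 2.23, 2.01 and 1.81. Heifers 35 and 22 had means of 6.86 and 6.15, and heifers 25, 20 and 18 means of 3.03, 2.91 and 2.42. Heifer 16 was the exception to this steadiness, with 12.6 on Day 0 and 3.26 and 2.98 on Days 8 and 16. Of the sum of squares of the log2 ratio, 91.0% lay between heifers and 1.90% between days, shares that were not tested. miR-192 was also low in heifer 34, whose mean of normalised counts over the 3 days (37465 CPM) was the lowest of the 8 and whose 17514 RPMM on Day 0 was the lowest of all 24 libraries, although on Day 8 it had 51208 RPMM, the highest RPMM of that day.

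**Figure D4:**
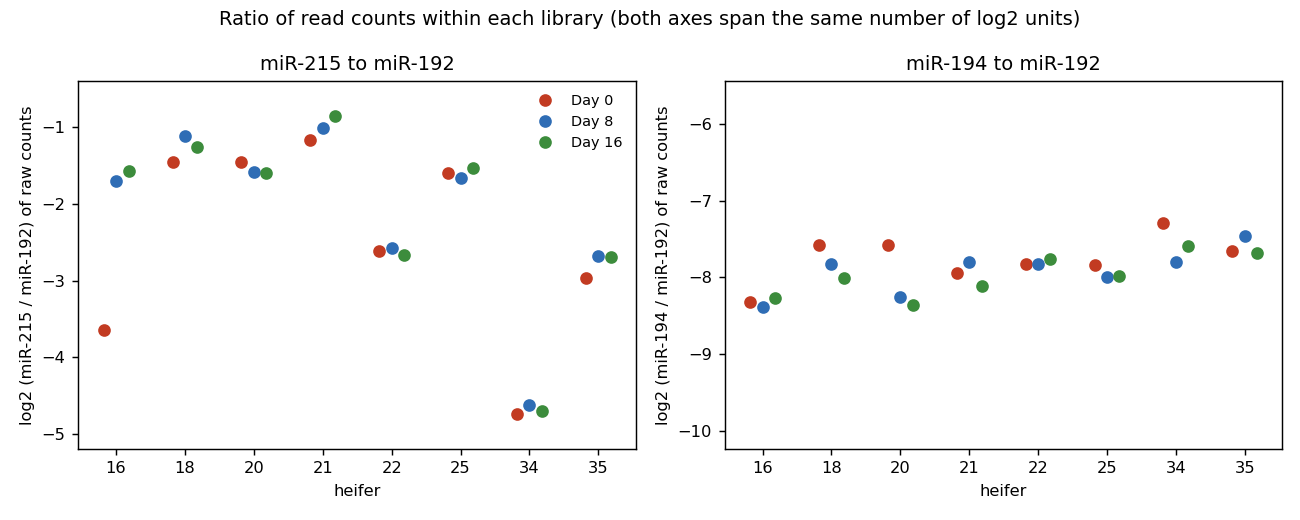
Log2 ratio of raw counts of miR-215 to miR-192 (left) and of miR-194 to miR-192 (right) in each library, by heifer (x axis) and day (colour). On the left the 3 libraries of a heifer lie close together except for heifer 16 on Day 0, and heifer 34 is lowest, with a mean of −4.69. On the right all values lie between −8.38 and −7.29.

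Between days this ratio did not differ beyond its spread. On the log2 scale it averaged −2.12 ± 1.18 on Day 8 and −2.45 ± 1.27 on Day 0 (SD, n = 8 each), a mean difference within heifers of 0.33 ± 0.67 (higher on Day 8 in 6 of 8, exact two-sided sign-change permutation test, p = 0.0938, adjusted over 6 tests 0.188). Day 16 averaged −2.11 ± 1.23, with a difference from Day 0 of 0.34 ± 0.72 (6 of 8, exact p = 0.0938, adjusted 0.188) and from Day 8 of 0.01 ± 0.11 (3 of 8, exact p = 0.797). The smallest p that 8 heifers allow is 0.0078. Without heifer 16 the first 2 differences were 0.10 and 0.097, so that most of each came from that heifer.

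miR-192, the most abundant of the 5, had a lowest, median and highest RPMM of 17514, 35001 and 60528 on Day 0, 30953, 39696 and 51208 on Day 8, and 26332, 29208 and 63510 on Day 16. The 3 ranges overlapped, and the spread was narrowest on Day 8. The log2 fold change was 0.21 for Day 8 against Day 0 (SE 0.20, 95% interval −0.22 to 0.63, edgeR adjusted p = 0.645, higher in 5 of 8 heifers), 0.05 for Day 16 against Day 0 (SE 0.20, 95% interval −0.37 to 0.46) and −0.16 for Day 16 against Day 8 (SE 0.20, 95% interval −0.58 to 0.26). The sign for Day 16 against Day 0 was turned by total-count scaling (−0.17) and by the use of RPMM in limma (−0.048). Without heifer 34 the values for Day 8 against Day 0 and for Day 16 against Day 8 were 0.0028 and −0.024, and without heifer 20 the first of these was 0.079. Heifers moved in different ways. Heifer 34 had 17514, 51208 and 27346 RPMM on Days 0, 8 and 16, whereas heifer 35 had 60528, 33373 and 29419. The heifer term did not pass (F = 2.07, adjusted p = 0.222), and of the alternatives run it did so only without heifer 35 (adjusted p = 0.0649).

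miR-194, its neighbour on chromosome 29, was read far less often. Its lowest, median and highest RPMM were 110, 151 and 299.5 on Day 0, 97.8, 177 and 230.1 on Day 8, and 102, 125 and 205 on Day 16. A median of 227 miR-192 reads (157 to 334 over the libraries) was counted for each miR-194 read. Log2 fold changes were 0.05 for Day 8 against Day 0 (SE 0.16, 95% interval −0.29 to 0.39, edgeR adjusted p = 0.896), −0.15 for Day 16 against Day 0 (SE 0.16, 95% interval −0.49 to 0.19) and −0.20 for Day 16 against Day 8 (SE 0.16, 95% interval −0.54 to 0.14, higher on Day 16 in 1 of 8 heifers in normalised counts). miR-194 was also the steadiest of the 5 between heifers, with heifer means at most 1.48-fold apart and a heifer term of F = 1.13 (adjusted p = 0.536).

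Despite the gap in their levels, miR-192 and miR-194 moved alike over libraries. Their log2 CPM had a Pearson r of 0.77 over the 24 libraries, and each was the other's closest match among the 180 other tested miRNAs. Over the 8 libraries of a day, r was 0.86 on Day 0 and 0.83 on Day 16 but only 0.42 on Day 8. Libraries of a heifer share an animal and miRNAs of a library share its depth, so this is given as a description. After miR-194, the closest to miR-192 were miR-148a (0.71) and miR-30a-5p (0.70). After miR-192, the closest to miR-194 were miR-29b and miR-22-3p (0.67 each). The log2 ratio of miR-194 to miR-192 averaged −7.97 ± 0.28 on Day 16 and −7.76 ± 0.31 on Day 0 (SD, n = 8 each), a difference of −0.22 ± 0.28 that was positive in 2 of 8 heifers and did not pass (exact two-sided sign-change permutation test, p = 0.0547, adjusted 0.188). For Day 8 against Day 0 the difference was −0.16 ± 0.30 (exact p = 0.203) and for Day 16 against Day 8 −0.06 ± 0.18 (exact p = 0.406). Of its sum of squares 65.7% lay between heifers, whose means ran from 189 miR-192 reads for each miR-194 read in heifer 34 to 321 in heifer 16. This share is a description and was not tested.

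**Figure D5:**
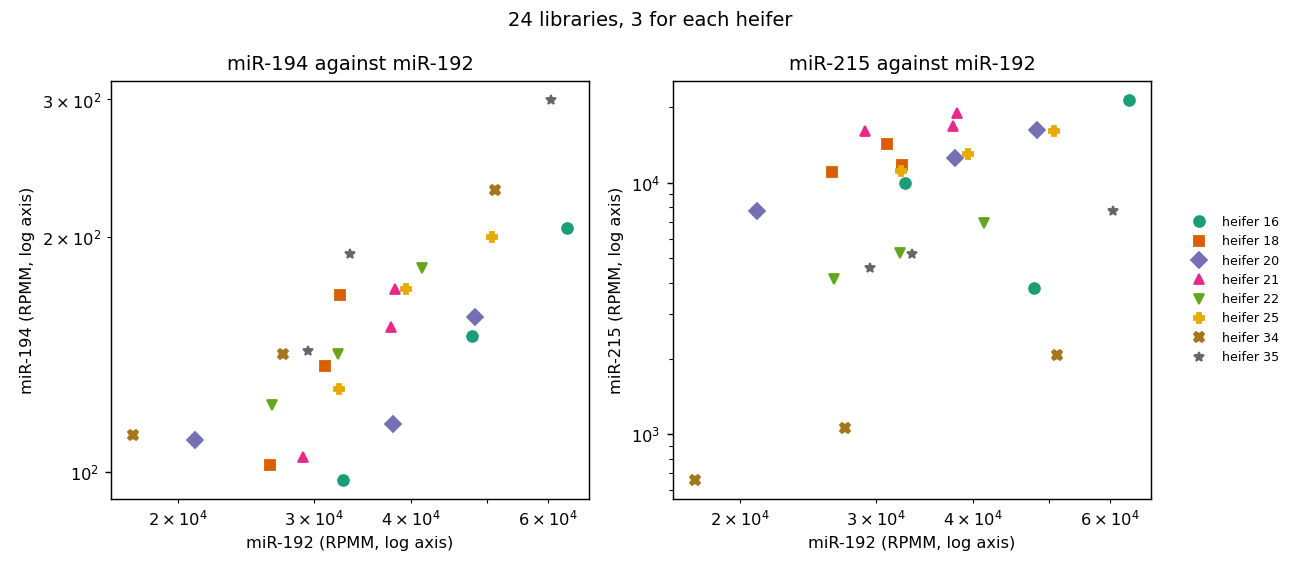
Level of miR-194 (left) and of miR-215 (right) against miR-192 in the 24 libraries (RPMM, log axes), with a symbol for each heifer. On the left the points form a single rising band, and on the right the libraries of heifer 34 lie apart at 657 to 2068 RPMM of miR-215.

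Although miR-215 has the seed of miR-192, it was not the closest match of miR-192. Its r with miR-192 was 0.58 over the 24 libraries, behind that with miR-186 (0.70) and just above that with miR-24-3p (0.56). Over the 8 heifer means, the unit at which animals are independent, r was 0.64 for miR-192 and miR-215 (Spearman's rho 0.33, exact permutation p = 0.103 for r and 0.428 for rho). For miR-192 and miR-194 r was 0.66 (rho 0.69, exact permutation p = 0.0710 for r and 0.0694 for rho). Of the 10 pairs of the 5 miRNAs, 0 passed after adjustment over the 10 pairs, and the smallest adjusted p was 0.388 for r and 0.231 for rho. Leaving out the 2 heifers farthest from the median of miR-192 gave r = 0.64 for miR-192 with miR-215 and 0.61 for miR-192 with miR-194. On log2(RPMM + 1) in place of CPM these r values were 0.40 and 0.35. The r of miR-192 with miR-215 was 0.41 without heifer 34 and 0.83 without heifer 16.

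By reads, miR-122 was the scarcest of the 5, and it was the only one besides miR-215 called for a difference between heifers. Heifer 21, which had the highest mean of miR-215, had the lowest of miR-122, with 10.4, 5.55 and 9.93 RPMM on Days 0, 8 and 16. These values rest on 54, 26 and 40 reads, and the exact 95% Poisson interval of the lowest, which covers counting error only, is 3.63 to 8.13 RPMM. Heifer 35 had 143, 74.2 and 50.2 RPMM on Days 0, 8 and 16, the highest RPMM of each day. In normalised counts the highest were heifer 16 on Day 0 (248 CPM, against 184.4 in heifer 35), heifer 20 on Day 8 (97.5 against 78.3) and heifer 18 on Day 16 (77.8 against 69.8). Heifer 34 was again low, at 13.2, 22.6 and 21.5 RPMM. The Day 0 libraries of heifers 16 and 18 stood far from their other days, heifer 16 with 143 RPMM on Day 0 against 30.6 and 37.3 RPMM on Days 8 and 16, and heifer 18 with 10.3 RPMM on Day 0 against 39.7 and 40.7 RPMM.

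The heifer term for miR-122 had F = 5.89 and an adjusted p of 0.0107 (rank 20 of 326 by p). Heifer took 70.7% of its sum of squares and day 0.345%, and the highest and lowest heifer means were 7.66-fold apart. The call was lost without heifer 21 (F = 2.97, adjusted p = 0.132) and was kept without each of the others, with F up to 9.39 (without heifer 18). Between days the lowest, median and highest RPMM were 10.3, 37.7 and 143 on Day 0, 5.55, 38.9 and 74.2 on Day 8, and 9.93, 39.0 and 50.2 on Day 16. The medians were nearly equal and the highest value was smaller on the later days. The log2 fold change was −0.32 for Day 8 against Day 0 (SE 0.35, 95% interval −1.05 to 0.41, edgeR adjusted p = 0.711), −0.20 for Day 16 against Day 0 (SE 0.36, 95% interval −0.94 to 0.54) and 0.12 for Day 16 against Day 8 (SE 0.34, 95% interval −0.59 to 0.83). These intervals are the widest of the 5, and they leave room for changes of any size inside them. Without heifer 16 the first 2 values turned to 0.04 and 0.18.

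The other miRNAs known from liver were not called between days. Of the 6 names looked for (miR-885, miR-148a, miR-193a, miR-193b, miR-365 and miR-101) the table had 9 rows, of which 4 were tested. In edgeR, DESeq2 and limma 0 of the 4 passed for any pair of days. In edgeR miR-101 had an unadjusted p under 0.05 for Day 16 against Day 0 and against Day 8, with log2 fold changes of 0.47 and 0.43 (adjusted p = 0.340 and 0.807). Their median log2 fold change was −0.06 for Day 8 against Day 0 and −0.19 for Day 16 against Day 0, where the medians of the 181 were 0.04 and 0.0029. The most abundant were miR-148a (10034 ± 3041 RPMM) and miR-101 (9039 ± 2675 RPMM), both also widely expressed outside the liver. For the heifer term 2 of the 4 were called, miR-193b (F = 5.23, adjusted p = 0.0188) and miR-101 (F = 3.76, adjusted p = 0.0580), where 17.7% of the 181 were called. miR-193b was also among the miRNAs most like miR-122 over the 24 libraries (r = 0.65), with miR-30a-5p (0.73) and miR-365-3p (0.56).

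miR-375 had a lowest, median and highest RPMM of 1186, 1915 and 2776 on Day 0, 1545, 2274 and 3339 on Day 8, and 1299, 2230 and 4104 on Day 16. The ranges overlapped, and the highest value belonged to heifer 21 on Day 16. The log2 fold change was 0.40 for Day 16 against Day 0 (SE 0.21, 95% interval −0.04 to 0.85, edgeR adjusted p = 0.375, higher in 6 of 8 heifers), 0.24 for Day 8 against Day 0 (SE 0.21, 95% interval −0.21 to 0.68, adjusted p = 0.624, 6 of 8) and 0.16 for Day 16 against Day 8 (SE 0.21, 95% interval −0.28 to 0.61). Without heifer 16 the value for Day 8 against Day 0 was 0.073. Heifer means differed at most 1.99-fold, from heifer 18 (1196 to 1839 RPMM) to heifer 21 (2776 to 4104 RPMM), and the heifer term did not pass (F = 2.93, adjusted p = 0.124). It passed without heifer 35 (adjusted p = 0.0959), without heifer 16 (adjusted p = 0.0758) and, in alternatives added after the data were seen, with the share of miR-486 as a covariate (adjusted p = 0.0831) and with no limit on low counts (adjusted p = 0.0746).

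The closest matches of miR-375 included miRNAs of epithelium. Over the 24 libraries its r was 0.82 with miR-429 and 0.78 with miR-200a, both of the miR-200 family that maintains the epithelial state, and 0.75 with miR-92b. Of 8 names of miRNAs of gut and other epithelium (miR-200a, miR-200b, miR-200c, miR-141, miR-429, miR-203, miR-31 and miR-147), 6 were matched by a row and 4 rows were tested. In edgeR 0 of the 4 passed for any pair of days (also 0 in DESeq2 and limma) or for heifers. Of the 4, 1, miR-147, had an unadjusted p under 0.05 in edgeR, for Day 16 against Day 0. It was lower on Day 16, with a log2 fold change of −0.42 (edgeR adjusted p = 0.340). The values of miR-141, miR-200a and miR-429 were 0.20, 0.11 and 0.28. The median log2 fold change of the 4 was 0.12 for Day 8 against Day 0 and 0.15 for Day 16 against Day 0. miR-141, at 1184 RPMM on average, was the most abundant of them and miR-200a, at 311 RPMM, the next.

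Other miRNAs of pancreas and endocrine cells were near the limit of detection. All 6 names looked for (miR-7, miR-153, miR-184, miR-216a, miR-216b and miR-217) had a row, and 0 of the 6 passed the limit for testing. Their summed level was 5.24 to 529.5 RPMM on Day 0, 5.17 to 23.8 RPMM on Day 8 and 6.46 to 17.9 RPMM on Day 16. The highest of these sums came from miR-184 in 1 library of Day 0. Apart from miR-184 (27.4 RPMM on average), none of the 6 averaged more than 2.92 RPMM, so that miR-375, at 2197 RPMM, stood alone among the miRNAs of this list in abundance.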

How the data were processed

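Small RNA from the plasma of 8 heifers on 3 days was sequenced as single-end reads. The authors discarded reads lacking an adaptor or holding undetermined bases and assigned the others with sRNAbench to mature miRNAs of cattle and humans (1 mismatch allowed). They deposited a raw read count per miRNA and library. The submitters' processing notes name Bowtie 0.12.9. The authors also deposited RPM values, called RPMM, which are counts divided by the genome-mapped reads of the library. No reads were mapped again, and 0 sample columns were left unused. Total counts per library ranged from 1299679 to 4700764.

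The members and lists were chosen with earlier results of these data known. Counts were scaled by TMM and tested with edgeR 4.0.16 in R 4.3.3 (terms day and heifer, adjusted p under 0.1). The SE is the log2 fold change divided by the square root of F. CPM values are TMM-normalised, with 1 added before log2. The libraries are paired because each heifer gave all 3. As a check, profiles less the mean of their day had a median correlation of 0.34 within heifers and −0.04 between them. Named miRNAs are the 5 members, the 3 most like each over the 24 libraries, miR-486, and from each list the 2 most abundant tested and any called. miR-147, the less abundant members of the pancreas list and the blood cell markers were named after their values were seen. Alternatives were DESeq2 1.42.0, limma 3.58.1 on log2(RPMM + 1) and log2(RPMM + 0.1), a repeated-measures test, other scalings, other limits on low counts, the share of miR-486 as a covariate, a fit with day only and leaving out each heifer. Exact tests used scipy 1.17.1 in Python 3.11.15, and figures matplotlib 3.10.9.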

Additional observations from a re-analysis of the deposited data

Results flagged for a closer look

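A gap test was applied to each miRNA and day. On log2 CPM, it divides the gap between the highest or lowest heifer and the next by the whole range. The result is compared with Dixon's critical value for 8 heifers, which chance passes in about 1 group of 20. Every miRNA described was tested on every day, so a pass may be due to chance. On Day 0, heifer 34 was lowest for bta-miR-215 with a value of 0.614, at 903 CPM (657 RPMM). On Day 16, heifer 16 was highest for bta-miR-194 with a value of 0.68, at 303 CPM (205 RPMM).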

How the results depend on the processing

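Over 282 alternative values of the fold changes of the 5 miRNAs between days, 254 kept their direction, 28 turned it and 0 gained a call (smallest adjusted p 0.165). With total counts, those that turned were miR-192 for Day 16 against Day 0 (−0.17) and, for Day 16 against Day 8, miR-122 (−0.080) and miR-375 (−0.0041). With RPMM in place of counts, miR-192 for Day 16 against Day 0 was −0.048 in limma and the repeated-measures test, and miR-122 for Day 16 against Day 8 was −0.049 with 1 added (limma and repeated measures) and −0.040 with 0.1 added. With the covariate for miR-486, Day 16 against Day 8 gave 0.060 for miR-192 and −0.017 for miR-375, and Day 16 against Day 0 gave 0.013 for miR-194 and 0.014 for miR-122. With no replicate block, miR-215 gave 0.053 and miR-122 −0.034 for Day 16 against Day 8, and miR-194 −0.0036 for Day 8 against Day 0, and the block changed no call.

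Leaving out each heifer in turn gave −0.026 to 0.21 for miR-192 (Day 16 against Day 0), −0.25 to 0.041 for miR-215 (Day 16 against Day 8), −0.10 to 0.16 for miR-194 (Day 8 against Day 0), and for miR-122 −0.52 to 0.043 (Day 8 against Day 0), −0.44 to 0.18 (Day 16 against Day 0) and −0.027 to 0.23 (Day 16 against Day 8). The number of the 5 called for the heifer term was 1 (without heifer 21) to 4 (without heifer 35), against 2 with all. It was 3, with miR-375 added, without heifer 16, with the covariate for miR-486 and with no limit on low counts, the last 2 added after the data were seen. The log2 ratio of miR-215 to miR-192 for Day 16 against Day 8 was −0.0098 as a median and −0.0092 to 0.033 over omissions of a heifer. The correlation over heifers of miR-215 turned to −0.31 with miR-194 and −0.00038 with miR-122 when log2(RPMM + 1) was used. Over omissions it was −0.36 to 0.21 for miR-194 and miR-375, −0.49 to 0.36 for miR-122 and miR-375, and −0.49 to 0.66 for miR-215 and miR-122. The causes were not tested. miR-122 had 26 to 477 reads in a library, and its residual SD after heifer and day was 0.80 on the log2 scale. With an SE of 0.34 to 0.36 for its fold changes, small changes in it may have been missed.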
